A study of Mus musculus with 30 samples.

Results

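The 10 genes described here are the hepatic acute phase proteins serum amyloid A (Saa1, Saa2 and Saa3), orosomucoid (Orm1, Orm2 and Orm3), lipocalin 2 (Lcn2) and haptoglobin (Hp), together with the transcription factor Stat3 and its feedback inhibitor Socs3. They were taken by gene symbol from a table of raw read counts for 55335 mouse genes, and each symbol matched a single row. The livers came from male mice on an albino C57BL/6J background, 7 to 10 weeks old, of 3 genotypes: wild-type, C151S (homozygous for a CRISPR-Cas9 knock-in that puts serine in place of a reactive cysteine of KEAP1, the sensor that holds the transcription factor NRF2 in check) and Nrf2-knockout. A single oral dose of the triterpenoid CDDO-Me (30 µmol/kg), an activator of NRF2, was compared at 24 h with vehicle alone (10% DMSO and 10% Cremophor-EL in phosphate-buffered saline), giving 6 groups of 5 mice and 1 RNA-seq library from each mouse. The C151S and Nrf2-knockout mice were bred from homozygous matings and the wild-type mice were bought, so genotype and colony cannot be told apart. All p-values measure the spread among these mice. RNA was taken from whole liver, in which fewer cells of a type and less RNA per cell cannot be told apart.

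The acute phase response is the change in secreted liver proteins that follows infection, injury or inflammation. Interleukin 6 and related cytokines bind receptors that share the GP130 subunit, Janus kinases then phosphorylate STAT3, and STAT3 acts together with C/EBP and NF-kB factors at the promoters of acute phase genes. SOCS3 is induced by STAT3 and blocks the receptor complex, which makes it the negative feedback arm of the pathway. SAA1 and SAA2 are apolipoproteins of the high-density lipoprotein that circulates during inflammation, and SAA3 is also made by macrophages and fat. The orosomucoids are acidic plasma glycoproteins that carry drugs and lipids, LCN2 binds the iron-carrying siderophores of bacteria, and haptoglobin captures free haemoglobin.

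The promoters and coding starts that follow are shown because the Saa and Orm members form 2 families of similar genes whose reads can be confused. The data also compare members of the same family. In GRCm38 the 3 serum amyloid A genes lie together on chromosome 7, with Saa3 at chr7:46711998-46715700 and Saa1 at chr7:46740497-46742980, both on the minus strand, and Saa2 at chr7:46751790-46754313 on the plus strand. The 3 orosomucoid genes lie in a row on the plus strand of chromosome 4, with Orm1 at chr4:63344560-63348163, Orm3 at chr4:63356162-63359511 and Orm2 at chr4:63362449-63365878. Stat3 (chr11:100885098-100939540) and Socs3 (chr11:117966079-117970047) are both on the minus strand of chromosome 11, Lcn2 is at chr2:32384633-32388252 and Hp at chr8:109575128-109579172, both also on the minus strand. All 10 are annotated as protein-coding. RefSeq promoter windows (GRCm38.p6, 250 bases before to 50 bases after the transcription start) were found for 8 of the 10 members, and none was found for Orm1 or Hp. The stretches printed are given 5′ to 3′ on the gene's strand, and all but that of Socs3 lie upstream of the annotated gene. The Socs3 stretch lies before the RefSeq start but inside the span annotated for the gene. Capitals mark matches to the letters TTGCNNAA (C/EBP) or TTCNNNGAA (STAT), searched on both strands.
Saa1 promoter (chr7:46742981-46743230, minus strand): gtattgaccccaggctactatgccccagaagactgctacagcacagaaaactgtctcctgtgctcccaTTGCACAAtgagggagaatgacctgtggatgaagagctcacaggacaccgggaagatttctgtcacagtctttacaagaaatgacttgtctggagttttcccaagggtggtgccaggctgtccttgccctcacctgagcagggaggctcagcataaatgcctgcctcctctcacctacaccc
Saa2 promoter (chr7:46751583-46751789, plus strand): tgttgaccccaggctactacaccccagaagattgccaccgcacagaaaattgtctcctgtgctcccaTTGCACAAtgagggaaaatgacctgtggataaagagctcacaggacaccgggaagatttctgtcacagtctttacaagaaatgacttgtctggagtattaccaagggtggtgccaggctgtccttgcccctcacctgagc
Orm2 promoter (chr4:63362199-63362448, plus strand): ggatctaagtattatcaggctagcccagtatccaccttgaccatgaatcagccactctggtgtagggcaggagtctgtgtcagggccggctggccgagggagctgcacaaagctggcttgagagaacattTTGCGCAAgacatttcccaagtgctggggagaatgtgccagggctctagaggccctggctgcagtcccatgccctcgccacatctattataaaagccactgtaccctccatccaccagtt
Orm3 promoter (chr4:63355908-63356157, plus strand): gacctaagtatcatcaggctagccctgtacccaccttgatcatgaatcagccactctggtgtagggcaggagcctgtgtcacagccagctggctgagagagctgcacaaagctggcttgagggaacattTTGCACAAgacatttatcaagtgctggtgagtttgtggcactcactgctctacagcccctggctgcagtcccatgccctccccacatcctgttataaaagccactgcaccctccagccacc
Socs3 promoter (chr11:117969452-117969616, minus strand): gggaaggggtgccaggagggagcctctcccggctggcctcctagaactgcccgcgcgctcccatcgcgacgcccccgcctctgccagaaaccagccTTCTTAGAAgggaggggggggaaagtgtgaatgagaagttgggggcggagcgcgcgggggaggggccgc

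A C/EBP match was found in 6 of the 8 promoter windows (Saa1, Saa2, Saa3, Orm2, Orm3 and Lcn2), against 10.8% of 32851 promoter windows of the same length. The STAT letters were found in the Socs3 window alone among the 8, against 8.30% of all windows. They ran from base -154 to -146 before the RefSeq start, inside the span annotated for Socs3. A relaxed NF-kB pattern, GGNNNTTCC, matched in Saa3 and at 2 places in Stat3, against 18.5% of all windows. The antioxidant response element core TGACNNNGC, the letters bound by NRF2 with its partners, was in none of the 8 windows and in 12.4% of all windows. None of these matches overlapped a match to another pattern, and they describe letters only. Over the 250 upstream bases Saa1 and Saa2 were 94.8% identical, Orm2 and Orm3 were 85.5% identical, and Saa1 and Saa3 were 48.5% identical.

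The coding sequences of Saa1 and Saa2 were 95.1% identical, differing at 18 of 369 bases. Their first 120 coding bases differ at 5 positions, shown in capitals.
Saa1 coding start: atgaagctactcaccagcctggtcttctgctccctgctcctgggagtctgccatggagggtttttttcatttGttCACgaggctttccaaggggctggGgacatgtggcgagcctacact
Saa2 coding start: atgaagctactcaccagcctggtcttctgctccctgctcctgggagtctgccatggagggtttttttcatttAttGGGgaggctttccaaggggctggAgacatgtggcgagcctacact
Orm1 and Orm2 differed at 63 of 624 coding bases (89.9% identity). Orm3 was 86.1% identical to Orm1 and 88.0% to Orm2. Saa3 was less alike, at 76.1% identity to Saa1 and 75.1% to Saa2. Of all 50-base windows in each member's main transcript, 14.8% of those in Saa1 and 13.3% of those in Saa2 also occur in another gene, as do 20.4% in Orm1 and 22.7% in Orm2, the latter also with the predicted gene Gm11212. The share was 1.78% for Saa3 and 3.59% for Orm3, and 0 for Lcn2, Hp, Stat3 and Socs3. A read from a shared window cannot be assigned by its own sequence to a single gene, though its mate can place the pair. The window shares therefore do not give the share of pairs lost. Multiply mapped reads were left out of the counts, so the levels of Saa1, Saa2, Orm1 and Orm2 are less certain than those of the other members.

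The libraries held from 23667068 to 42073169 counts on genes, with a median of 33229925. Levels are given as CPM, counts per 1000000 counts of the library's total as scaled by edgeR's trimmed mean of M values. Nqo1, the standard NRF2 target, rose from 7.14 ± 2.34 to 64.0 ± 25.1 CPM in wild-type mice (mean ± SD, n = 5), stood at 6.71 ± 0.39 and 7.07 ± 1.04 CPM in C151S mice without and with CDDO-Me, and at 1.96 ± 0.52 and 2.57 ± 0.62 CPM in Nrf2-knockout mice. Nfe2l2, the gene for NRF2, was counted at 35.2 ± 4.8 CPM in vehicle-treated Nrf2-knockout mice against 65.7 ± 3.6 CPM in the wild-type. The clock gene Arntl separated 11 libraries of C151S and Nrf2-knockout mice, spread over the 4 mutant groups, from all others. In every group the hepatocyte markers summed to between 83580 and 164900 CPM.

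Single mice stood apart within several groups, and Saa1 spanned 147.1-fold from lowest to highest among the C151S mice given CDDO-Me. Mouse 1 of the CDDO-Me-treated C151S group held the highest level among all 30 mice for each of the 10 members, and 6.29% of its gene counts fell on them. Mouse 2 of the CDDO-Me-treated Nrf2-knockout group came next, at 3.29%. In the wild-type CDDO-Me group, mice 1 and 2 stood at 2.95% and 2.13%, above mice 3 to 5 at 0.681% to 0.977%. Vehicle-treated mice held from 0.306% to 0.742%, the highest being wild-type mouse 4. Member results that rest on these mice are mostly given with and without them, while the pathway lists were read with all mice only. None of these mice is in the comparison of the C151S and Nrf2-knockout vehicle groups.

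**Figure D1:**
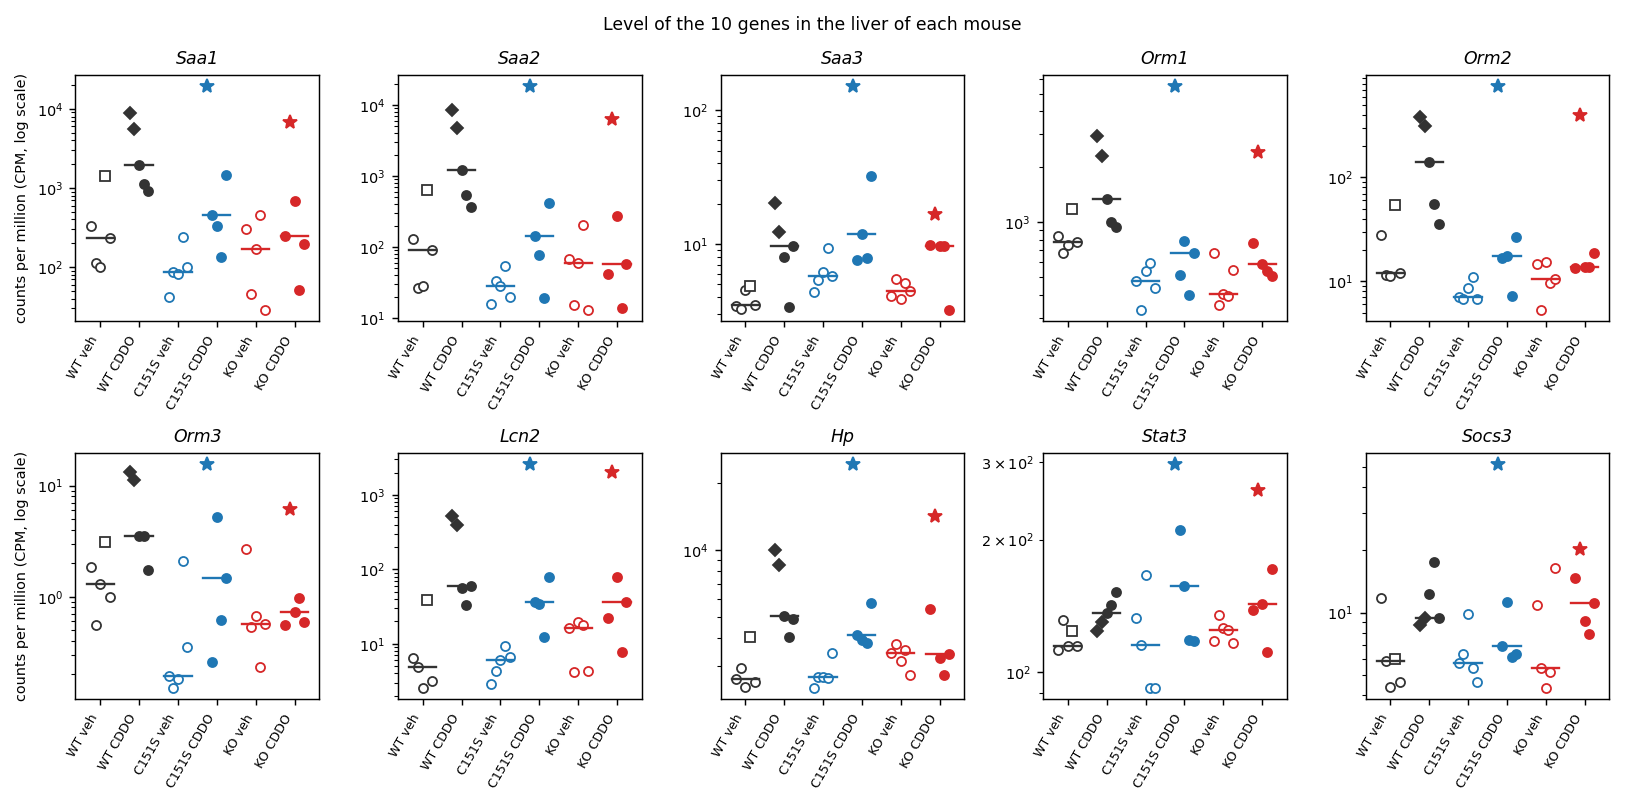
Level of each of the 10 genes in each mouse, in CPM on a log axis, by genotype and treatment (open symbols, vehicle; filled symbols, CDDO-Me; horizontal line, median of 5 mice; stars, mouse 1 of the C151S and mouse 2 of the Nrf2-knockout CDDO-Me groups; diamonds, wild-type CDDO-Me mice 1 and 2; square, wild-type vehicle mouse 4). The 2 starred mice lie far above the rest of their groups for Saa1, Saa2, Orm1, Orm2, Lcn2 and Hp.

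The first comparison asked how CDDO-Me changed the acute phase genes in wild-type liver. All 10 members had a positive fold change, and 4 passed the test (false discovery rate, FDR, below 0.05 and absolute log2 fold change of at least 0.5): Saa3, Orm2, Lcn2 and Hp. Over all genes tested, 2.75% were called in either direction. These calls depended on the fit. DESeq2 called 8 members, against 529 of all genes, where the main fit called 377. With no filter on low counts edgeR also called 8 members. It called 0 with the replicate number as a block and 0 in 1 fit of all 30 libraries. Among the 10 members the median log2 fold change stood at 1.75, against -0.007 over all genes. Without CDDO-Me mice 1 and 2, an alternative chosen after seeing the data, none of the 10 was called, against 1.93% of all genes; 7 of the members then had log2 fold changes from 0.82 to 2.14, with the others at 0.26, 0.36 and 0.67.

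Saa1, in the 5 wild-type vehicle mice, stood at 329, 111, 100.4, 1402 and 235 CPM, and in the 5 CDDO-Me mice at 8915, 5488, 1957, 1126 and 926 CPM. The groups overlapped through vehicle mouse 4, and the log2 fold change of 3.07 ± 0.84 (SE) did not pass (edgeR adjusted p = 0.0625). Saa2 stood at 131, 26.5, 28.1, 628 and 91.8 CPM with vehicle and at 8430.2, 4729, 1196, 539 and 362 CPM with CDDO-Me. It showed the same overlap and a log2 fold change of 4.06 ± 1.09 (edgeR adjusted p = 0.0565). Without vehicle mouse 4 both passed, at 4.24 (edgeR adjusted p = 0.00891) and 5.45 (edgeR adjusted p = 0.0151). That mouse was singled out after seeing the values. It was the highest vehicle mouse for both genes, so leaving it out could only widen the difference. Saa3 was low throughout, at 3.45, 3.28, 4.50, 4.84 and 3.52 CPM with vehicle and 20.4, 12.2, 8.01, 3.39 and 9.65 CPM with CDDO-Me. It rose by 1.43 ± 0.36 on the log2 scale (edgeR adjusted p = 0.0414), with CDDO-Me mouse 4 inside the vehicle range, and was called in 1 of the 10 fits that each left out 1 mouse.

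The orosomucoids differed in level and in the size of the change. Orm1, the most abundant of them, stood at 839.9, 679, 749, 1178 and 777 CPM with vehicle and at 2917, 2296, 1331, 998 and 934 CPM with CDDO-Me, a log2 fold change of 1.00 ± 0.30 that did not pass (edgeR adjusted p = 0.0859). Orm2 stood at 27.9, 11.6, 11.3, 53.8 and 12.2 CPM with vehicle and at 381, 311, 142, 55.9 and 36.0 CPM with CDDO-Me. Its rise of 2.98 ± 0.68 on the log2 scale passed (edgeR adjusted p = 0.0264), with CDDO-Me mouse 5 below vehicle mouse 4, and passed in 5 of the 10 fits without 1 mouse. Orm3 was low, at 0.553 to 3.08 CPM with vehicle and 1.75 to 13.1 CPM with CDDO-Me, and its log2 fold change was 2.07 ± 0.57 (edgeR adjusted p = 0.0627).

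Lcn2 had the largest fold change of the 10 in wild-type mice. It stood at 6.37, 4.84, 2.53, 38.8 and 3.16 CPM with vehicle and at 521, 401, 55.4, 33.7 and 60.3 CPM with CDDO-Me, 19.0-fold higher by the fit (log2 4.25 ± 0.99, edgeR adjusted p = 0.0303). CDDO-Me mouse 4 lay below vehicle mouse 4, and each other CDDO-Me mouse lay above all 5 vehicle mice. Leaving out vehicle mouse 4 gave 5.67 (edgeR adjusted p = 0.0063), leaving out CDDO-Me mice 1 and 2 gave 2.14 (edgeR adjusted p = 0.21), and leaving out all 3 gave 3.57 (edgeR adjusted p = 0.000727). These mice were singled out after seeing the values, as the highest of their groups for Lcn2. Dropping the vehicle mouse could only raise the fold change, and dropping the CDDO-Me mice could only lower it. Hp, the most abundant member, stood at 2629, 2936, 2418, 4058 and 2544 CPM with vehicle and at 10019, 8529, 5049, 4046 and 4869 CPM with CDDO-Me. It rose by 1.15 ± 0.25 on the log2 scale (edgeR adjusted p = 0.0195), with CDDO-Me mouse 4 just under vehicle mouse 4, and passed in 6 of the 10 fits without 1 mouse. The number of members called in those fits ran from 0 (without vehicle mouse 3 or 5 or CDDO-Me mouse 2) to 7 (without CDDO-Me mouse 5). It was 1 without vehicle mouse 1 (Socs3) and 1 without CDDO-Me mouse 1 (Hp), and 6 without vehicle mouse 4.

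Stat3 and Socs3 had the smallest fold changes of the members in wild-type mice. Stat3 stood at 112, 131, 115, 124 and 115 CPM with vehicle and at 124, 130.1, 136, 142 and 152 CPM with CDDO-Me, a log2 fold change of 0.19 ± 0.07 (edgeR adjusted p = 0.172). Socs3 stood at 11.8, 5.84, 4.40, 5.98 and 4.64 CPM with vehicle and at 8.69, 9.45, 12.2, 17.4 and 9.37 CPM with CDDO-Me, a log2 fold change of 0.81 ± 0.28 (edgeR adjusted p = 0.133). The mice highest for Stat3 and Socs3 were not those highest for Saa1 and Lcn2. Stat3 was highest in CDDO-Me mouse 5 and Socs3 in CDDO-Me mouse 4, which held the lowest and the next lowest levels of Saa1 in the group. The CDDO-Me and vehicle groups overlapped for each of the 10 members, whereas 3.22% of 14986 genes were higher in every CDDO-Me mouse than in any vehicle mouse.

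**Figure D2:**
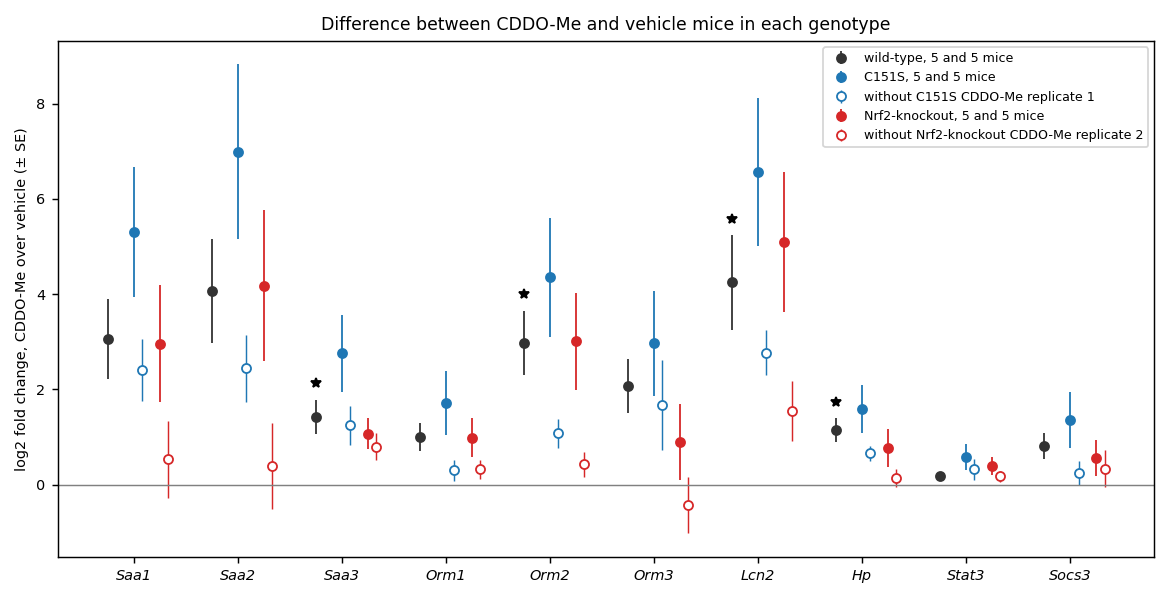
Log2 fold change of each gene with CDDO-Me against vehicle (error bars, SE) by genotype (wild-type, C151S, Nrf2-knockout); filled symbols use all 5 mice of each group, open circles leave out C151S CDDO-Me mouse 1 or Nrf2-knockout CDDO-Me mouse 2, and a black star marks a call. The calls are Saa3, Orm2, Lcn2 and Hp in wild-type mice, and the mutant values drop when the single mouse is left out (Lcn2 in C151S mice from 6.56 to 2.77).

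In C151S mice the same comparison asked whether the response persisted when KEAP1 lacked this cysteine. All 10 members again had a positive fold change, from 0.58 (Stat3) to 6.99 (Saa2) on the log2 scale, and none passed in edgeR, against 0.0920% of all genes. At an unadjusted p below 0.05 there were 9 members, against 1942 of 14128 genes. DESeq2 also called 0 members, against 100 of all genes. The median over the 10 was 2.86, against -0.005 for all genes.

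Mouse 1 set much of the size of these values. Saa1 stood at 41.9, 86.8, 82.7, 241 and 101 CPM in the 5 C151S vehicle mice and at 19584, 449.6, 328, 133 and 1468 CPM in the CDDO-Me mice, for a log2 fold change of 5.30 ± 1.37 (edgeR adjusted p = 0.333). Without mouse 1 it was 2.41 (edgeR adjusted p = 0.403). Saa2 stood at 15.9, 33.0, 27.9, 53.6 and 19.7 CPM with vehicle and at 18612, 141, 77.2, 19.1 and 423 CPM with CDDO-Me. Its CDDO-Me mice spanned 972.7-fold from lowest to highest, and mouse 4 lay inside the vehicle range.

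Lcn2 and Hp were the 2 members whose groups did not overlap in C151S mice, a pattern seen in the higher direction for 0.934% of all genes. Lcn2 stood at 2.86, 4.36, 5.96, 9.33 and 6.56 CPM with vehicle and at 2605, 36.3, 33.9, 12.3 and 78.1 CPM with CDDO-Me. Its log2 fold change was 6.56 ± 1.56 (edgeR adjusted p = 0.285), and 2.77 without mouse 1 (edgeR adjusted p = 0.0852). Hp stood at 2384, 2674, 2685, 2646 and 3428 CPM with vehicle and at 24312, 4129.5, 3928, 3798 and 5764 CPM with CDDO-Me. Its log2 fold change was 1.59 ± 0.51 (edgeR adjusted p = 0.347), and 0.66 without mouse 1 (edgeR adjusted p = 0.302).

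The other Saa and Orm genes of the C151S livers also depended on mouse 1, and mouse 5 was second highest for Saa1, Saa2, Saa3, Orm2, Lcn2 and Hp. Saa3 stood at 4.35 to 9.27 CPM with vehicle and at 153, 7.53, 11.9, 7.84 and 32.2 CPM with CDDO-Me, for a log2 fold change of 2.76 ± 0.81 (edgeR adjusted p = 0.347). Orm1 stood at 331 to 599 CPM with vehicle and at 5512, 510.4, 789.8, 399 and 672 CPM with CDDO-Me, and its log2 fold change of 1.72 ± 0.67 went to 0.30 without mouse 1. Orm2 stood at 6.78 to 10.9 CPM with vehicle and at 762, 16.8, 17.6, 7.27 and 26.9 CPM with CDDO-Me, and 4.35 ± 1.25 went to 1.08. Orm3 rested on few counts, from 5 to 65 per library with vehicle, and went from 2.97 ± 1.10 to 1.68 without mouse 1. Mouse 3 was second highest for Orm1 and Orm3.

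Stat3 in C151S mice stood at 133, 116, 166, 92.2 and 92.1 CPM with vehicle and at 297, 209.9, 157, 118 and 118 CPM with CDDO-Me, a log2 fold change of 0.58 ± 0.27 (edgeR adjusted p = 0.366) and of 0.32 without mouse 1. Mice 1 and 2 were above the vehicle range and the other 3 were inside it. Socs3 stood at 4.63 to 9.80 CPM with vehicle and at 51.7, 6.88, 11.3, 6.11 and 6.33 CPM with CDDO-Me. Its log2 fold change of 1.35 ± 0.59 went to 0.25 without mouse 1, and mouse 1 held 8.45 times the lowest level in its group.

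In Nrf2-knockout mice the comparison asked what remained without NRF2. The 10 members had positive fold changes from 0.39 (Stat3) to 5.10 (Lcn2) on the log2 scale with a median of 1.03, and none passed in edgeR. No gene of the whole table passed either (0%), with 1136 of 14474 genes at an unadjusted p below 0.05, and DESeq2 called 52 genes, none of them a member. Among the members, 6 had an unadjusted p below 0.05.

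These values depended on mouse 2. Saa1 stood at 306, 45.6, 169, 454 and 28.8 CPM with vehicle and at 247, 6856, 677, 51.9 and 198 CPM with CDDO-Me. Its log2 fold change of 2.96 ± 1.23 (edgeR adjusted p = 0.603) went to 0.53 without mouse 2 (edgeR adjusted p = 0.902), and 3 of the 5 CDDO-Me mice lay inside the vehicle range. Saa2 stood at 67.3, 15.2, 60.2, 206 and 13.1 CPM with vehicle and at 41.5, 6367, 272, 13.9 and 58.4 CPM with CDDO-Me. It went from 4.18 ± 1.59 to 0.40 without mouse 2. Orm1 stood at 351 to 673 CPM with vehicle and at 763, 2412, 587, 536 and 508 CPM with CDDO-Me, and its 0.99 went to 0.33. Orm2 stood at 5.32 to 15.2 CPM with vehicle and at 13.6, 399, 13.8, 13.8 and 18.9 CPM with CDDO-Me, and 3.01 ± 1.01 went to 0.43. Orm3 changed sign, from 0.90 ± 0.79 to -0.42.

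Lcn2 in Nrf2-knockout mice stood at 16.2, 4.21, 19.3, 17.6 and 4.30 CPM with vehicle and at 22.5, 2026, 78.5, 7.82 and 36.7 CPM with CDDO-Me. The log2 fold change was 5.10 ± 1.46 (edgeR adjusted p = 0.547), and 1.54 without mouse 2 (edgeR adjusted p = 0.66), with mouse 4 inside the vehicle range and the other 4 above it. Hp stood at 3445, 3770.1, 3154, 3541 and 2728 CPM with vehicle and at 5421, 14129.6, 3253, 2731 and 3408 CPM with CDDO-Me, and its 0.77 went to 0.14. Only mice 1 and 2 exceeded the vehicle range for Hp.

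Saa3 moved less when mouse 2 was left out. It stood at 4.10, 5.44, 3.90, 5.11 and 4.47 CPM with vehicle and 9.87, 16.9, 9.57, 9.64 and 3.21 CPM with CDDO-Me. Its log2 fold change was 1.07 ± 0.32 (edgeR adjusted p = 0.547) and 0.80 without mouse 2 (edgeR adjusted p = 0.642), and 4 of 5 CDDO-Me mice lay above all vehicle mice. Stat3 stood at 118, 135, 126, 125 and 116 CPM with vehicle and at 139, 259, 143, 111 and 172 CPM with CDDO-Me, going from 0.39 to 0.18 without mouse 2. Socs3 stood at 10.9, 5.39, 4.33, 5.18 and 16.4 CPM with vehicle and at 14.7, 20.3, 9.16, 7.93 and 11.2 CPM with CDDO-Me, with a log2 fold change of 0.57 that went to 0.34. No member's groups were without overlap in Nrf2-knockout mice, against 1.18% of all genes higher in every CDDO-Me mouse.

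Set against the median of the 5 vehicle mice of its own genotype, each CDDO-Me mouse showed its own extent of the response. Lcn2 was 107.7-fold and 82.8-fold over that median in wild-type mice 1 and 2, and from 6.95-fold to 12.4-fold in the other 3. In C151S mice it was 437-fold in mouse 1 and from 2.07-fold to 13.1-fold in the rest. In Nrf2-knockout mice it was 125-fold in mouse 2 and from 0.484-fold to 4.86-fold in the rest. The number of members above all 5 vehicle mice was 8, 8, 10, 4 and 4 in wild-type mice 1 to 5, was 10, 6, 9, 2 and 7 in C151S mice, and was 5, 10, 5, 1 and 3 in Nrf2-knockout mice. Wild-type mouse 3, with moderate levels of Saa1 and Lcn2, was thus above the vehicle range for all 10 members, Stat3 and Socs3 included. The share of all genes above the vehicle range was not taken for single mice, so these counts have no background beside them.

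**Figure D3:**
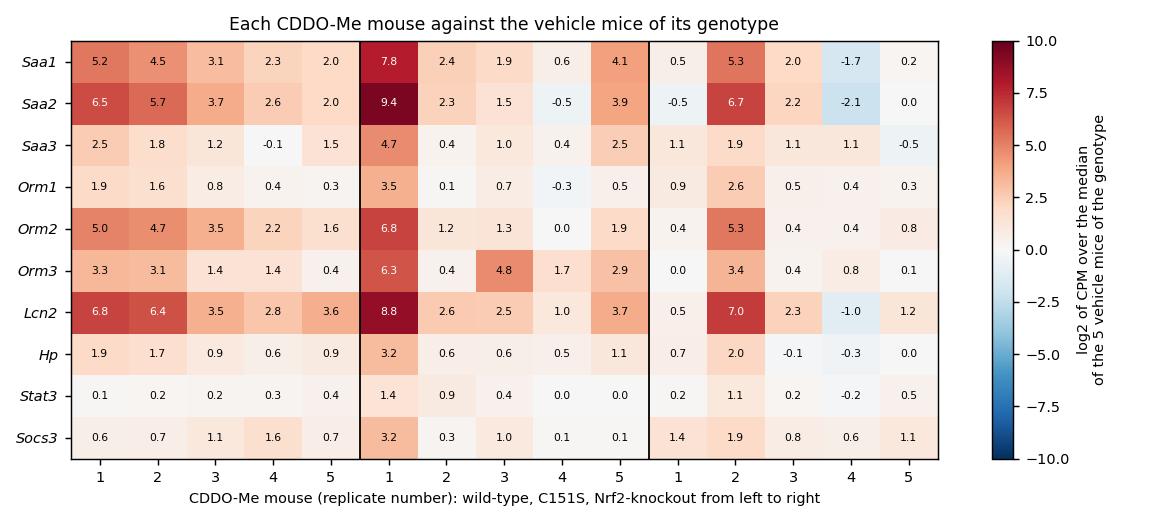
Log2 of the CPM in each of the 15 CDDO-Me-treated mice over the median CPM of the 5 vehicle mice of the same genotype, for each of the 10 genes (colour scale in log2 units). C151S mouse 1 and Nrf2-knockout mouse 2 have the strongest colours in their genotypes, reaching 437-fold and 125-fold for Lcn2, while Stat3 stays between 0.895-fold and 2.56-fold in all 15 mice.

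The genotypes' responses were then compared with each other in a fit of all 30 libraries. No member was called for a different response between wild-type and C151S mice (0 called in edgeR and in DESeq2, 0 at an unadjusted p below 0.05; 0.480% of all genes called), between wild-type and Nrf2-knockout mice (0 in each; 0.266% of all genes) or between C151S and Nrf2-knockout mice (0 in each; 0.0133% of all genes). Of all 15010 genes, 1247, 942 and 739 had an unadjusted p below 0.05 in the same order, and DESeq2 called 113, 85 and 3. The errors were wide. For Lcn2 the wild-type minus C151S difference was -2.31 ± 1.82 on the log2 scale (edgeR adjusted p = 0.773). The wild-type minus Nrf2-knockout difference was -0.88 ± 1.79 (edgeR adjusted p = 0.976). Differences of several-fold in either direction were therefore not resolved. All 10 members had the larger log2 fold change in C151S mice than in wild-type mice. Without C151S mouse 1 and Nrf2-knockout mouse 2, again chosen after seeing the data, the Lcn2 differences turned to 1.48 and 2.71 (edgeR adjusted p = 0.789 and 0.549). The smallest adjusted p of a member in that fit was for Orm2 between wild-type and Nrf2-knockout mice, with a difference of 2.55 ± 0.74 (edgeR adjusted p = 0.197), followed by Hp at 1.01 ± 0.31 (edgeR adjusted p = 0.251).

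Without CDDO-Me, Orm1 passed the test in both mutants against wild-type mice and Orm2 in C151S mice alone, while Orm3 passed in neither; in 1 fit of all 30 libraries 0 members were called in both comparisons. Orm1 was lower in C151S than in wild-type mice by a log2 fold change of -0.82 ± 0.18 (edgeR adjusted p = 0.0166), at 331 to 599 CPM against 679 to 1178 CPM, and Orm2 by -1.54 ± 0.42 (edgeR adjusted p = 0.0462), at 6.78 to 10.9 CPM against 11.3 to 53.8 CPM. These were 2 of 10 members called, against 4.84% of all genes, and neither gene's groups overlapped, against 5.08% of all genes lower in every C151S mouse. The Orm1 call was made in all 10 fits without 1 mouse, and the Orm2 call in 4 of 10. Without wild-type vehicle mouse 4, Orm1 stood at -0.68 and Orm2, no longer called, at -0.97. The log2 difference of Saa2 was -2.59 ± 0.80 without passing (edgeR adjusted p = 0.0681), and went to -1.21 without that mouse. Saa1 went from -1.98 to -0.82 (edgeR adjusted p = 0.107 and 0.351), and Lcn2 changed sign, from -0.94 to 0.47 (edgeR adjusted p = 0.41 and 0.464). Saa3 was at 4.35 to 9.27 CPM against 3.28 to 4.84 CPM, a difference of 0.66 ± 0.20 in the other direction (edgeR adjusted p = 0.0597). Stat3, Socs3 and Hp had log2 differences between -0.07 and 0.01, with standard errors of 0.15 to 0.29.

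In Nrf2-knockout mice given vehicle, Orm1 was lower than in wild-type mice by almost the same amount, -0.83 ± 0.20 (edgeR adjusted p = 0.0168), at 351 to 673 CPM. It was the only member called, against 10.4% of all genes, and the groups did not overlap, against 6.70% of all genes. It passed in all 10 fits without 1 mouse. Orm2 (-1.07 ± 0.46, edgeR adjusted p = 0.123), Saa1 (-1.12) and Saa2 (-1.32) did not pass. Without wild-type vehicle mouse 4 the differences were -0.68 for Orm1, which was still called, -0.50 for Orm2, 0.05 for Saa1 and 0.06 for Saa2, so the direction of both Saa genes was lost. Without the mutant libraries low in Arntl, which left 2 of the Nrf2-knockout vehicle mice, Orm1 was no longer called in this comparison, while it was in the C151S comparison. Between the C151S and Nrf2-knockout vehicle groups no member was called in edgeR or in DESeq2. Over all genes, edgeR called 0.349% and DESeq2 called 180 genes. At an unadjusted p below 0.05 there were 2 members, against 1625 of 14323 genes.

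Among mice given CDDO-Me no member was called between C151S and wild-type mice (5.0% of all genes called), between Nrf2-knockout and wild-type mice (9.44%) or between C151S and Nrf2-knockout mice (0.162%). In each of these 3 comparisons edgeR and DESeq2 called 0 members and 1 had an unadjusted p below 0.05. Over all genes, 3402 of 13844, 4013 of 13935 and 1110 of 14186 had such a p, in the same order. DESeq2 called 1137, 1656 and 118 genes. The estimates were -1.22 ± 1.11 for Saa1 and -1.87 ± 0.74 for Orm3 in Nrf2-knockout against wild-type mice (edgeR adjusted p = 0.499 and 0.12), and 0.26 ± 1.19 for Saa1 and 1.99 ± 0.83 for Saa3 in C151S against wild-type mice (edgeR adjusted p = 0.915 and 0.165).

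Leaving out a single mutant mouse, in alternatives chosen after seeing the data, brought calls in both comparisons with wild-type mice. Each mouse left out was the highest of its group for the members called, while wild-type CDDO-Me mice 1 and 2 stayed in. Leaving it out could only lower the mutant levels, so these calls do not test for a difference between genotypes. Without mouse 1 of the C151S group, 3 members were lower in C151S than in wild-type mice, against 9.28% of all genes called: Saa2 by -4.21 (edgeR adjusted p = 0.0367), Orm1 by -1.51 (edgeR adjusted p = 0.022) and Orm2 by -3.43 (edgeR adjusted p = 0.0129). Without mouse 2 of the Nrf2-knockout group, 5 members were lower than in wild-type mice, against 10% of all genes called. These were Saa1 by -3.65 (edgeR adjusted p = 0.0174), Saa2 by -4.99 (edgeR adjusted p = 0.0179), Orm1 by -1.50 (edgeR adjusted p = 0.013), Orm2 by -3.62 (edgeR adjusted p = 0.00426) and Orm3 by -3.21 (edgeR adjusted p = 0.00507). Lcn2 was lower by -2.42 and -2.55 in the 2 fits without passing (edgeR adjusted p = 0.092 and 0.0824). Stat3 differed by 0.15 and 0.05 and did not pass. Without both mice no member was called between C151S and Nrf2-knockout mice.

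**Figure D4:**
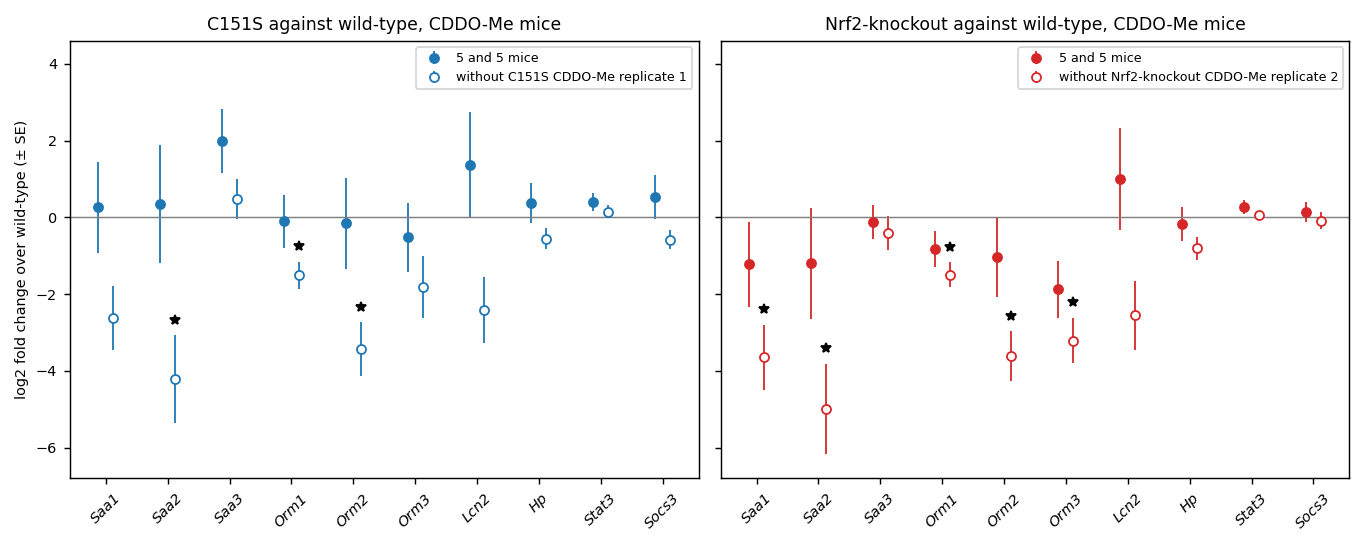
Log2 fold change of each gene in CDDO-Me-treated C151S or Nrf2-knockout mice against CDDO-Me-treated wild-type mice (error bars, SE); filled symbols use 5 and 5 mice, open circles leave out C151S mouse 1 or Nrf2-knockout mouse 2, and a star marks a call. Calls appear only in the fits without that mouse, for Saa2, Orm1 and Orm2 in C151S and for Saa1, Saa2, Orm1, Orm2 and Orm3 in Nrf2-knockout mice. Each mouse left out was the highest of its group for these genes, so the calls do not test for a difference between genotypes.

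The proportions within each family also differed between mice, and they are read with the shared windows of these genes in mind. The count of Saa2 over that of Saa1 had medians of 0.391, 0.338 and 0.356 in the wild-type, C151S and Nrf2-knockout vehicle groups, and stood between 0.391 and 0.946 in wild-type mice given CDDO-Me. It reached 0.950 in C151S mouse 1 and 0.929 in Nrf2-knockout mouse 2, while the CDDO-Me medians in those genotypes were 0.288 and 0.294. Orm2 over Orm1 moved from vehicle medians of 0.0171, 0.0160 and 0.0220 to CDDO-Me medians of 0.107, 0.0329 and 0.0258, with maxima of 0.136, 0.138 and 0.165. The highest ratio of Saa2 to Saa1 was thus above 0.9 in each of the 3 genotypes.

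**Figure D5:**
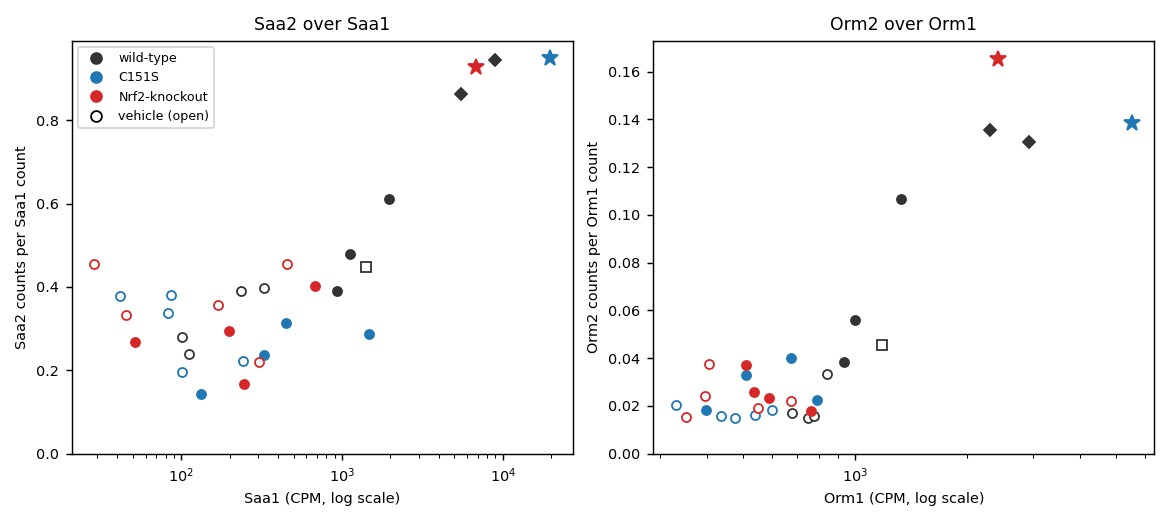
Count of Saa2 over Saa1 plotted against Saa1 CPM, and count of Orm2 over Orm1 against Orm1 CPM, 1 point per mouse (log x axes; symbols as in the plot of levels by mouse). The Saa2 ratio lies near 0.929 to 0.950 in the mice with the highest Saa1, against vehicle medians of 0.338 to 0.391.

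Per kilobase of the main transcript, the wild-type vehicle livers held Hp at 2169 ± 495 CPM per kilobase (mean ± SD, n = 5), Orm1 at 1090 ± 252, Saa1 at 715 ± 901 and Saa2 at 299 ± 419. Stat3 followed at 40.8 ± 2.7, Orm2 at 30.2 ± 23.8, Lcn2 at 12.2 ± 17.0, Saa3 at 7.06 ± 1.27, Socs3 at 2.56 ± 1.19 and Orm3 at 2.01 ± 1.27 CPM per kilobase. Of the neighbours in this order, Hp and Orm1, and Saa3 and Socs3, differed by more than either SD, and every other pair of neighbours differed by less than the larger of its SDs. With CDDO-Me the wild-type order was led by Saa1 (6046 ± 5673), Saa2 (5035 ± 5761) and Hp (4834 ± 1942 CPM per kilobase), which also lay within their SDs. Stat3 (46.8 ± 3.7 CPM per kilobase) then stood below Lcn2 and Orm2 in the means.

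Across the 30 libraries the levels of Saa1 and Saa2 were ranked nearly alike (Spearman's rank correlation 0.972 on log2 CPM), as a description of libraries that share treatment and genotype. The rank correlation was 0.883 between Saa1 and Lcn2, 0.851 between Lcn2 and Hp, 0.833 between Orm1 and Orm2 and 0.855 between Orm1 and Orm3. Stat3 was between 0.106 (Orm3) and 0.532 (Lcn2) with the other members, and Socs3 between 0.285 (Saa3) and 0.587 (Orm2). Among the 14986 genes ranked, with the members left out, the nearest to Saa1 were Serpina3m (0.822), Serpina3n (0.811) and Fgl1 (0.791). Those nearest to Lcn2 were Serpina3n (0.883), Fgl1 (0.868) and Serpina3m (0.864). Hp had Serpina3n (0.849), Itih4 (0.84) and Fgl1 (0.815), and Orm2 had Slc35b4 (0.834), Fgl1 (0.827) and Metap1d (0.818). Orm1 had Extl1 (0.914), Ormdl3 (0.902) and Slc35b4 (0.901), and Orm3 had Nfe2l1 (0.886), Gm47465 (0.881) and Dicer1 (0.881). Saa2 had Metap1d (0.782), Plpp5 (0.78) and Serpina3n (0.779), and Saa3 had Aprt (0.726), Copz2 (0.713) and Ifitm2 (0.708). Those nearest to Stat3 were Itih3 (0.723), Serping1 (0.722) and Slc39a1 (0.72), and to Socs3 Gas6 (0.705), C4b (0.676) and Mphosph6 (0.674).

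The wider pathway was read from lists drawn up with earlier results known. Of 29 other positive acute phase genes tested, 10 rose and 1 fell with CDDO-Me in wild-type mice (median log2 fold change 0.14, against -0.007 for all genes, of which 2.75% were called). They included the metallothioneins Mt2 (3.59 ± 0.45, edgeR adjusted p = 0.000619) and Mt1 (3.03 ± 0.40, edgeR adjusted p = 0.000935), the lipopolysaccharide binding protein Lbp (0.60 ± 0.07, edgeR adjusted p = 0.000381), Lrg1 (1.09 ± 0.18, edgeR adjusted p = 0.00491) and complement C3 (0.70 ± 0.12, edgeR adjusted p = 0.00509). None of 12 negative acute phase genes was called (median -0.10). In C151S and Nrf2-knockout mice none of the 29 was called, with 27 and 22 having positive fold changes and medians of 0.85 and 0.46. These values include the mice that stood apart. The whole list summed to 192000 CPM in C151S CDDO-Me mouse 1, against 66300 to 84080 CPM in the rest of its group. It summed to 138900 CPM in Nrf2-knockout CDDO-Me mouse 2, against 55970 to 77630 CPM in the rest.

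Of 13 tested ligands, receptors and kinases of the IL-6 family, 2 rose and 1 fell in wild-type mice, against 2.75% of all genes called. Clcf1, a ligand acting through the CNTF receptor, rose by 1.40 ± 0.19 on the log2 scale (edgeR adjusted p = 0.00131), from 0.774 to 1.64 CPM with vehicle to 2.68 to 3.19 CPM with CDDO-Me. Il22ra1, a chain of the IL-22 receptor, rose by 0.82 ± 0.16 (edgeR adjusted p = 0.0115), and Lifr, the receptor of leukaemia inhibitory factor, fell by 1.05 ± 0.18 on that scale (edgeR adjusted p = 0.00663). Clcf1 was also the only one of the listed pathway genes whose response differed between wild-type and C151S mice, by 1.80 ± 0.42 (edgeR adjusted p = 0.0446). None of 20 STAT factors and inhibitors, 18 genes of the NF-kB and IL-1 branch or 11 receptors and partners of the members was called, and of 18 STAT3 targets and partner factors only Fgl1, a hepatokine, rose (1.50 ± 0.27, edgeR adjusted p = 0.00826). The transcripts of Il6, Osm, Lif and Il11 themselves were at most 0.158 CPM in any library.

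In the other genotypes none of the pathway lists had a gene called for CDDO-Me against vehicle. Between genotypes after CDDO-Me, the receptor Il6ra was higher in C151S and in Nrf2-knockout mice than in wild-type mice (1.50 ± 0.19 and 1.15 ± 0.21, edgeR adjusted p = 0.00101 and 0.00421), while Clcf1 was lower (-1.54 ± 0.21 and -1.51 ± 0.25, edgeR adjusted p = 0.00142 and 0.00238). Both comparisons share the wild-type mice, and 5.0% and 9.44% of all genes were called in them. Lepr, the leptin receptor, was higher in both mutants with vehicle (1.66 ± 0.29 and 2.27 ± 0.47, edgeR adjusted p = 0.0069 and 0.00976) and with CDDO-Me (1.99 ± 0.44 and 3.02 ± 0.51, edgeR adjusted p = 0.0229 and 0.00263), where 4.84% and 10.4% of all genes were called between the vehicle groups. The STAT3 targets Myc and Pim1 were lower in C151S than in wild-type mice after CDDO-Me (-1.78 ± 0.26 and -1.31 ± 0.24, edgeR adjusted p = 0.00245 and 0.00953). They were the only calls among 18 STAT3 targets and partner factors, of which 12 had positive differences (median 0.275, against 0.027 for all genes). In Nrf2-knockout mice after CDDO-Me the only call of that list was Ccnd1, higher by 2.39 ± 0.46 (edgeR adjusted p = 0.00602). With vehicle, 1 of the list was higher and 2 lower in C151S mice, and 2 higher and 1 lower in Nrf2-knockout mice.

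Neutrophils make LCN2 of their own, and their markers were measured beside it. The 12 neutrophil markers summed to 22.5 CPM in C151S CDDO-Me mouse 1 and to between 1.53 and 15.4 CPM in all other mice, with Nrf2-knockout CDDO-Me mouse 2 at 8.50 CPM. The defining marker Ly6g was at or below 3 counts in every mouse of every group. In wild-type mice the markers summed to 2.45 to 3.88 CPM with vehicle and 2.55 to 5.30 CPM with CDDO-Me. Of 3 markers tested, S100a8 rose by 1.69 ± 0.38 on the log2 scale (edgeR adjusted p = 0.0235). S100a9 (0.86 ± 0.36, edgeR adjusted p = 0.24) and Csf3r (-0.15 ± 0.29, edgeR adjusted p = 0.852) did not pass. In C151S mice none of 3 markers was called with CDDO-Me, and all 3 had positive fold changes (median 1.27 on the log2 scale). In Nrf2-knockout mice none of 6 was called, and 1 had a positive fold change. Their values ran from -1.94 (Ngp) to 0.02 (Retnlg). Between the vehicle groups, 2 of 3 markers tested were called higher in Nrf2-knockout than in wild-type mice, against 10.4% of all genes. The part of neutrophils in the level of Lcn2 was not tested. The Kupffer cell and macrophage markers summed to 170 to 417 CPM in wild-type vehicle mice and 222 to 331 CPM in wild-type CDDO-Me mice, and to 226 to 475 CPM in the C151S and 183 to 421 CPM in the Nrf2-knockout CDDO-Me mice.

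Within each side of the Arntl split the treated mutants were compared with vehicle mice of the same side. In C151S mice all 10 members had a higher mean log2 CPM with CDDO-Me on both sides, by 0.87 to 6.19 among mice high in Arntl and by 0.22 to 2.03 among those low in it. In Nrf2-knockout mice all 10 were higher on the high side, by 0.62 to 4.97, and 9 of 10 on the low side, from -0.43 to 1.13. The 2 mice with the highest levels, C151S mouse 1 and Nrf2-knockout mouse 2, were both on the high side, where each group had 2 or 3 mice. All wild-type mice were high in Arntl, so the split does not touch the wild-type comparison.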

How the data were processed

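Male mouse liver RNA was read as TruSeq Stranded mRNA libraries, paired-end with 50-base reads. The authors assessed read quality with fastp without removing reads or bases, aligned them with STAR 2.7.7 to mm10 with GENCODE M23 annotation, and deposited whole-number counts per gene on the second strand (reads mapping to several places were not counted: 10.5% to 16.9%). Unassigned rows (4) were left out; 65.9% to 80.6% of reads fell on genes. The authors tested with edgeR 3.36.0. An isolation date used by the authors as a covariate is not given in the labels and was not used here.

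Symbols matched 55154 of 55335 genes, all 10 members included. The members and gene lists were chosen with earlier results of these data known. Groups come from the sample labels. Here edgeR 4.0.16 (R 4.3.3, limma 3.58.1) fitted the 10 libraries of each comparison by the quasi-likelihood F-test, after filterByExpr and trimmed mean of M values scaling, with Benjamini-Hochberg adjustment over all genes tested; the differences of responses came from a fit of all 30. A call needs an FDR below 0.05 and, except for response differences, a log2 fold change beyond 0.5 in either direction. All 10 members passed the filter in every comparison. The SE is the absolute log2 fold change over the root of F. Log2 CPM used a prior count of 2. CPM is the count per 1000000 counts of the library total times its factor. Genes named from the lists are among the 5 called genes with the lowest p in each list and comparison, and the likeness to each member names the 3 genes with the highest Spearman's rank correlation. The fit was tested on simulated data. Alternatives were upper-quartile and DESeq2 size factors, DESeq2 1.42.0, no filter, a minimum of 10 counts, the replicate number as a block, the Arntl side as a covariate or a filter, a fit of all 30 libraries, and leaving out each mouse. Depth limits precision most for Orm3; counts cover counting error only. Sequences are RefSeq (GRCm38.p6) and GENCODE, read with Python 3.11.15 and Biopython 1.88; figures were drawn with Matplotlib 3.10.9.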

Additional observations from a re-analysis of the deposited data

Results flagged for a closer look

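Single mice were flagged where the gap between the highest or lowest mouse of a group of 5 and the next was larger than Dixon's 95% critical value of 0.71 of the group's range. For normally distributed values chance alone flags about 1 of 20 groups. The rule was applied to CPM off the log scale, where these genes spread upward, so their chance rate is not known. Of 60 combinations of member and group, 23 were flagged, all for the highest mouse. Mouse 1 of the C151S CDDO-Me group was flagged for 8 members: Saa1 at 19584 CPM, Saa2 at 18612 CPM, Saa3 at 153 CPM, Orm1 at 5512 CPM, Orm2 at 762 CPM, Lcn2 at 2605 CPM, Hp at 24312 CPM and Socs3 at 51.7 CPM. Mouse 2 of the Nrf2-knockout CDDO-Me group was flagged for 7: Saa1 at 6856 CPM, Saa2 at 6367 CPM, Orm1 at 2412 CPM, Orm2 at 399 CPM, Orm3 at 6.11 CPM, Lcn2 at 2026 CPM and Hp at 14129.6 CPM. Mouse 4 of the wild-type vehicle group was flagged for Saa1 at 1402 CPM, Saa2 at 628 CPM and Lcn2 at 38.8 CPM. No wild-type CDDO-Me mouse was flagged.

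The other flags concerned a single member each. Saa2 reached 206 CPM in Nrf2-knockout vehicle mouse 4. Orm3 reached 2.08 CPM in C151S vehicle mouse 4 and 2.701 CPM in Nrf2-knockout vehicle mouse 1. Hp reached 3428 CPM in C151S vehicle mouse 5, and Socs3 reached 11.8 CPM in wild-type vehicle mouse 1. Members that share a mouse share its library, so these flags are not independent of each other.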

How the results depend on the processing

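The number of members called for CDDO-Me in wild-type mice was 4 and went to 8 with no filter, 8 with DESeq2, 0 with the replicate block, 0 in 1 fit of all 30 libraries and 0 without wild-type CDDO-Me mice 1 and 2, and ran from 0 to 7 when single mice were left out. The labels do not tie a replicate number to a litter or batch, so same-numbered mice were not treated as pairs. Their deviations over 2000 genes had mean correlations of 0.112, 0.074 and 0.194 for wild-type, for C151S and for Nrf2-knockout. Those of different-numbered mice were lower, at -0.021, -0.019 and -0.049. Single same-numbered pairs ran from -0.484 to 0.486, and different-numbered pairs from -0.706 to 0.632. Whether the replicate number follows a shared batch was not tested. For CDDO-Me in C151S mice the count of 0 became 1 in 1 fit of all 30 libraries (Saa3). For vehicle C151S against wild-type the count of 2 became 4 with the replicate block, 4 with DESeq2, 4 without the mutant libraries low in Arntl and 0 in 1 fit of all 30 libraries, and ran from 1 to 5 without single mice. For vehicle Nrf2-knockout against wild-type the count of 1 became 0 in 1 fit of all 30 libraries and 0 without the libraries low in Arntl, and ran from 1 to 2. After CDDO-Me, the count of 0 for C151S against wild-type became 1 in 1 fit of all 30 libraries (Saa3) and 1 without the libraries low in Arntl (Stat3), and ran from 0 to 3. That of 0 for Nrf2-knockout against wild-type became 2 with the replicate block (Orm1 and Orm3) and 1 without the libraries low in Arntl (Stat3), and ran from 0 to 5. The cause of these changes was not tested, and the other comparisons had 0 members called throughout. The share of all genes called under each of these settings is not set beside these counts. Over 33 log2 fold changes, those of the members with CDDO-Me in each genotype and the called vehicle differences, all 408 values under other settings kept their sign; these left out single mice only for called members, and Orm3 in Nrf2-knockout mice went to -0.42 without mouse 2. Depth limits Orm3 and Saa3 most, and with 5 mice a group a single mouse decides several calls.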
